A study of Mus musculus with 10 samples.

Results

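The genes described here belong to zinc and metal handling in the brain of Snx14-KO mice: the metallothioneins Mt1, Mt2 and Mt3, the zinc-sensing transcription factor gene Mtf1, the exporter genes Slc30a1, Slc30a3 and Slc30a10, and the importer genes Slc39a12 and Slc39a14. They are 9 of the 55536 mouse genes counted and were picked by name after their differences between KO and control, and between cerebellum and cortex, were already known. Their values in those comparisons are therefore a description and not a test. The levels were read from 10 RNA-Seq libraries of 5 mice at 1 year of age. Each mouse gave 1 cerebellum and 1 cerebral cortex library. The KO mice (KO 1 and KO 2) carried a frameshift deletion in both copies of Snx14, made with Cas9 in C57BL/6J embryos. The controls of each tissue were a pool of 2 Het mice with 1 such copy (controls 1 and 2) and 1 WT mouse (control 3), so the control group mixed genotypes. Per the study's methods, 1 deletion line gave homozygous pups, and each library holds RNA of a whole dissected tissue rather than of 1 cell type.

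Metallothioneins are small proteins rich in cysteine that bind zinc and copper, buffer free zinc and take up oxidants. Mt1 and Mt2 are made by many tissues and, in brain, mainly by astrocytes, while Mt3 is largely a brain protein. Zinc that enters a cell activates MTF1, which binds metal response elements before Mt1, Mt2 and Slc30a1. Glucocorticoids, cytokines and oxidants also raise Mt1 and Mt2. Proteins of the SLC30 (ZnT) family move zinc out of the cytosol and those of the SLC39 (ZIP) family move it in. SLC30A1 exports zinc at the cell surface, SLC30A3 fills synaptic vesicles of glutamatergic neurons with zinc, and SLC30A10 mainly exports manganese. SLC39A12 is a zinc importer of the brain, and SLC39A14 imports manganese, zinc and iron.

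The coding sequences of the metallothionein genes are shown because their likeness decides whether reads can be told apart and because their cysteine codons, in capitals, encode the metal ligands. They come from the first transcript of each gene in GENCODE M21 (GRCm38), are read on the plus strand of chromosome 8 without the introns, and span chr8:94179311-94180190 for Mt1, chr8:94172848-94173424 for Mt2 and chr8:94152800-94154007 for Mt3.
Mt1 coding: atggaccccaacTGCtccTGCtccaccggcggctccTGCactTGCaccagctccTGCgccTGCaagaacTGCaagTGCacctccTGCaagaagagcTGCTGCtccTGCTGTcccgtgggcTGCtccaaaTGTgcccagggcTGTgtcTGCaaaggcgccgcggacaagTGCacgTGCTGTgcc
Mt2 coding: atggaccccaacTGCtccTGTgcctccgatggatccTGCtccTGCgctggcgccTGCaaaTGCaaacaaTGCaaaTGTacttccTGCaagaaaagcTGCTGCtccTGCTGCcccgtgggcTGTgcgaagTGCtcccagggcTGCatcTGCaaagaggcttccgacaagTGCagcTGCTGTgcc
Mt3 coding: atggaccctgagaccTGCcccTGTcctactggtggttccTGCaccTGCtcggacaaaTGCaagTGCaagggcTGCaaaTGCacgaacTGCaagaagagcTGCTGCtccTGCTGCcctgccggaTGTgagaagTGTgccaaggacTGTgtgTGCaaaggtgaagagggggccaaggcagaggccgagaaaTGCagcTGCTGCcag
Mt1 and Mt2 each held 61 codons and Mt3 held 68, and all 3 held 20 cysteine codons. Aligned base by base, Mt1 and Mt2 were 79.2% identical, Mt1 and Mt3 65.7%, and Mt2 and Mt3 67.2%. The longest stretch of identical bases was 20 between the Mt1 and Mt2 transcripts, 27 between Mt1 and Mt3 and 20 between Mt2 and Mt3. These stretches are short beside the read length that the methods describe.

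Promoters were searched for the core of the metal response element, since Mt1, Mt2 and Slc30a1 are textbook targets of MTF1 yet differed in the measurements below. Windows were taken from RefSeq (GRCm38.p6), 250 bases before to 50 after the annotated start. The letters searched were TGCACNC and TGCGCNC on both strands, and matches are in capitals (a minus-strand match reads as its reverse complement). The windows shown are chr8:94178839-94179138 (plus strand) for Mt1, chr8:94172368-94172667 (plus strand) for Mt2 and chr1:191906531-191906830 (plus strand) for Slc30a1.
Mt1 promoter: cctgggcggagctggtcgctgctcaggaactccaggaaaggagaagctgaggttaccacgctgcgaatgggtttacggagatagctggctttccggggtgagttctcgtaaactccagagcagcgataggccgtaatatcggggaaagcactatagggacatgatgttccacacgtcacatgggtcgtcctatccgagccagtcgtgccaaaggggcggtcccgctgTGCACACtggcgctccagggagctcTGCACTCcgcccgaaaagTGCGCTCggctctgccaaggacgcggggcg
Mt2 promoter: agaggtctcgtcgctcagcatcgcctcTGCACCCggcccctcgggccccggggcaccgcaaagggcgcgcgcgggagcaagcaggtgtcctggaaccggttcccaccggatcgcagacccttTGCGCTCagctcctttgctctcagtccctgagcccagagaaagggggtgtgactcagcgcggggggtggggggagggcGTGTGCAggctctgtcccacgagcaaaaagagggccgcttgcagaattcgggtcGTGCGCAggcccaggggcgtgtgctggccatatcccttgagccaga
Slc30a1 promoter: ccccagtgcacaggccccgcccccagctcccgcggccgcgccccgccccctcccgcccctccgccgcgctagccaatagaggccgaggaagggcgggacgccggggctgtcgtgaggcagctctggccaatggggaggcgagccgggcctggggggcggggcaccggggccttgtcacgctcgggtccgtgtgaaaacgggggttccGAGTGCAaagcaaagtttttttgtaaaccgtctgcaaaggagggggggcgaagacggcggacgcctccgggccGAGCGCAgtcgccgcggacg
Mt1 held 3 matches, at -23, 3 and 21 from the start. Mt2 held 4, at -223, -128, -50 and 5, and Slc30a1 held 2, at -43 and 31. Slc30a10 held 3, of which 2 overlapped, Mt3 held 1, and Mtf1 and Slc39a12 held 0. Slc30a3 has windows at a pair of start sites, of which 1 held 1 match and the other 0. Slc39a14 had no entry in the promoter table. Of all 32851 windows, 25.7% held at least 1 match, 7.11% at least 2, 1.97% at least 3 and 0.517% at least 4. A match is a run of letters and not a measured binding site. Further annotated Mt1 transcripts start at chr8:94179211 and chr8:94179241, past the end of the window searched. Annotated Mt2 transcripts start at chr8:94172664, near the end of its window, and at chr8:94172860, past it. The positions given hold only for the start used for each window.

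Library depth ranged from 16088310 to 22975355 gene counts. Levels are given as counts-per-million (CPM), with library sizes scaled by TMM factors over all 10 libraries. Snx14, the gene with the frameshift deletion, was 42.8, 39.9 and 73.3 CPM in the cerebellum of controls 1, 2 and 3. In that of the KO mice it was 15.5 and 17.4 CPM. In cortex it was 34.4, 35 and 50.9 in controls and 14.8 and 16.1 in KO. Its log2 difference was -1.66 ± 0.256 (SE; edgeR quasi-likelihood test, adjusted p = 0.014) in cerebellum and -1.36 ± 0.192 (adjusted p = 0.754) in cortex, so that every library matched its label while the cortex fit did not call it. Of the exonic bases of Snx14, 8.92% lie in Gm20537 on the same strand, and a read pair over both genes was given to each. In KO cerebellum Gm20537 held 297 and 436 counts, beside 282 and 421 of Snx14. The part of such pairs in the KO level of Snx14 was not tested. Granule cell marker genes summed to 4908 to 5768 CPM in cerebellum and 415 to 471 in cortex, which fitted the tissue labels. On the first principal component in cortex (51.3% of the variance), control 2 lay at 25, apart from the other mice at -12.5 to -3.08. In cerebellum (37.4%) control 2 lay at 17.5, on the side of KO 1 (8.93) and KO 2 (1.73) and away from controls 1 (-13.4) and 3 (-14.8). Log2 differences of KO against control come from the fit within a tissue.

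All 3 metallothioneins were higher in KO than in control cerebellum, Mt1 and Mt2 more so than Mt3. Mt1 (ENSMUSG00000031765.8, chr8:94179082-94180327, plus strand) was 284, 239 and 299 CPM in the cerebellum of controls 1, 2 and 3, and 623 and 453 in that of KO 1 and KO 2. Both KO libraries lay above all controls, and KO 1 lay well above KO 2. The means were 274 ± 31 (SD, n = 3) and 538 ± 121 (n = 2), a log2 difference of 0.96 ± 0.14 (SE), or 1.95-fold. Mt2 (ENSMUSG00000031762.7, chr8:94172664-94173568, plus strand) was 177, 135 and 187 CPM in controls and 371 and 284 in KO. Its means of 166 ± 27.5 and 327 ± 61.6 differed by 0.97 ± 0.148 on the log2 scale, or 1.96-fold, with the same order of mice as Mt1. Mt3 (ENSMUSG00000031760.9, chr8:94152607-94154146, plus strand) was 204, 235 and 199 CPM in controls and 329 and 285 in KO. Its groups did not overlap either, with means of 213 ± 19.3 and 307 ± 31.4 and a log2 difference of 0.52 ± 0.0947, or 1.44-fold. Together the 3 genes took 0.0631% to 0.0706% of the gene counts of a control cerebellum and 0.107% to 0.136% of a KO cerebellum. In such bulk tissue, more cells of a type and more RNA per cell cannot be told apart.

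**Figure D1:**
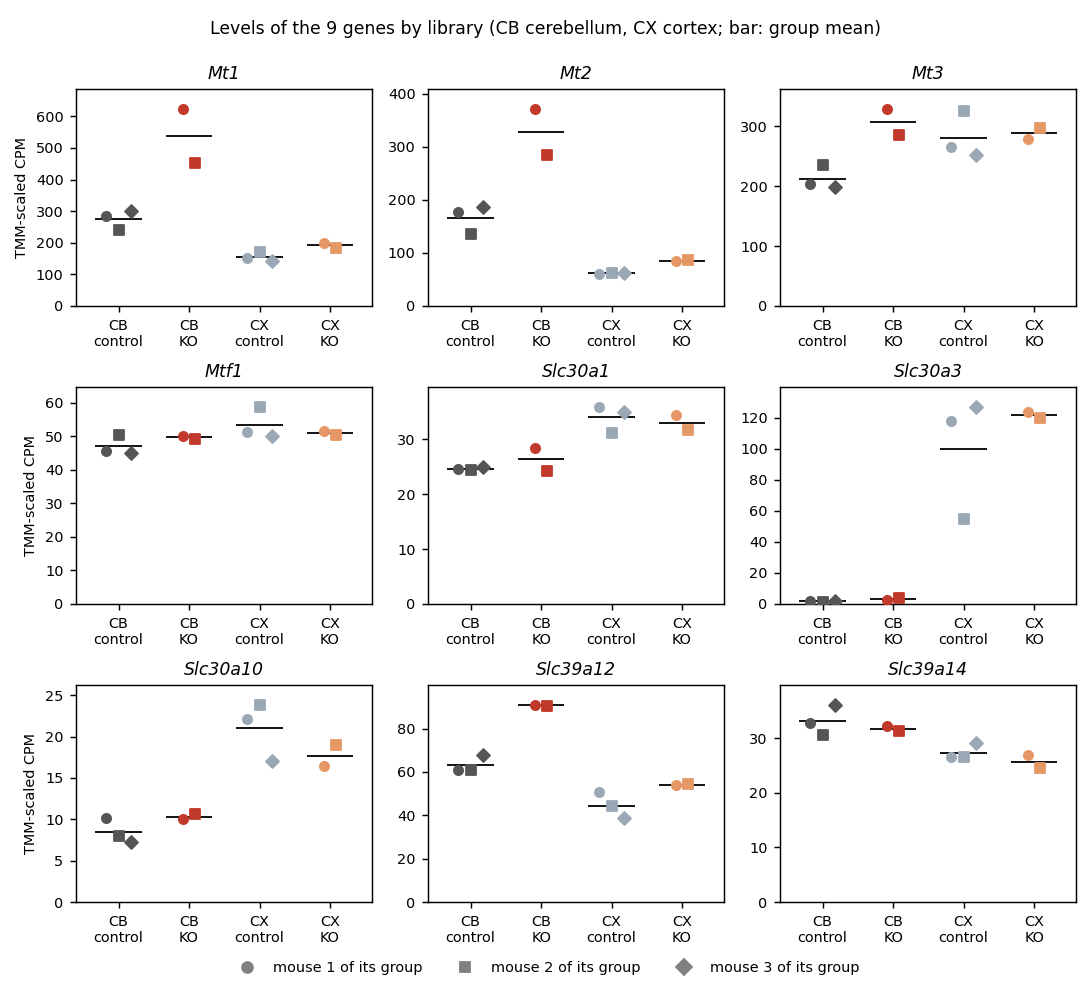
TMM-scaled CPM (vertical axis, from 0) of each of the 9 genes in the 10 libraries, by group, with 1 marker per mouse and a bar at the group mean. In cerebellum both KO libraries lie above all controls for Mt1, Mt2, Mt3, Slc30a3 and Slc39a12, while Mtf1, Slc30a1, Slc30a10 and Slc39a14 overlap.

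In cortex the metallothioneins differed less. Mt1 was 151, 172 and 143 CPM in the controls and 199 and 184 CPM in the KO mice, a log2 difference of 0.31 ± 0.109. Mt2 was 60.9, 62.1 and 63 CPM in controls and 85.2 and 85.7 in KO, a difference of 0.48 ± 0.079, or 1.39-fold. KO libraries lay above all controls for both genes, and the Mt2 values of each group sat close together. Mt3 was 266, 326 and 252 CPM in controls and 279 and 298 in KO, and its groups overlapped (0.05 ± 0.131). Without control 2 the cortex differences were 0.40 for Mt1, 0.48 for Mt2 and 0.17 for Mt3. Striatal marker sums were lower in KO than in control cortex without overlap, as given below, and their part in the cortex values was not tested.

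Mt2 shares bases with the antisense gene Gm45774 (chr8:94170748-94173412, minus strand). The shared stretch was 432 bases, which is 73.5% of the exonic bases of Mt2 and 16.2% of those of Gm45774. The libraries were strand-specific but were counted without strand, and a read pair over both genes was given to each. Gm45774 counts came to 97.8% to 99.1% of the Mt2 counts in every library, and its log2 difference in KO cerebellum was 0.96 ± 0.148. Transcripts of the 2 strands therefore cannot be told apart here, and the Gm45774 values are no second measurement. Mt1 shares no exonic bases with another gene. The ratio of Mt1 to Mt2 counts was 1.6 to 1.77 in control and 1.59 to 1.68 in KO cerebellum, and 2.27 to 2.77 in control and 2.15 to 2.33 in KO cortex.

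Mtf1 (ENSMUSG00000028890.13, chr4:124802104-124849800, plus strand), which encodes the zinc sensor that switches on Mt1 and Mt2, was nearly level. It was 45.7, 50.4 and 45.1 CPM in cerebellum controls and 50.1 and 49.3 in KO, and 51.4, 58.7 and 50.1 in cortex controls and 51.5 and 50.4 in KO. Its log2 differences were 0.07 ± 0.0785 and -0.05 ± 0.102 (0.12 and 0.02 without control 2), and groups overlapped in both tissues. Of its exonic bases, 8.09% lie in 1110065P20Rik on the other strand. Its RNA level says nothing of the activity of the protein.

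Among the exporters, Slc30a1 (ENSMUSG00000037434.7, chr1:191906767-191913247, plus strand), the MTF1 target at the cell surface, was close to level. It was 24.7, 24.5 and 24.9 CPM in cerebellum controls and 28.5 and 24.2 in KO. Only KO 1, the mouse with the higher metallothionein values, lay above the controls, and the log2 difference was 0.08 ± 0.0994 (0.08 without control 2). In cortex it was 35.9, 31.2 and 35 CPM in controls and 34.4 and 31.7 in KO (-0.03 ± 0.11, and -0.08 without control 2). Of its exonic bases, 8.92% lie in 1700034H15Rik on the other strand, whose level was 3.85 to 4.48 CPM in cerebellum.

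Slc30a3 (ENSMUSG00000029151.14, chr5:31086106-31108237, minus strand), the loader of synaptic vesicles, was a cortical gene and close to the filter in cerebellum. There it was 1.96, 1.06 and 2.09 CPM in controls and 2.75 and 3.81 in KO, which did not overlap. The log2 difference of 0.95 ± 0.315 rested on 23 to 92 counts a library and was not called (0.70 without control 2). In cortex it was 118, 55 and 127 CPM in controls and 124 and 119.7 in KO. Control 2 lay far below the other mice, and summed cortical excitatory neuron markers ran from 4710 to 7348 CPM over the controls with control 2 lowest, and from 7145 to 7619 in KO. The cortex difference was 0.30 ± 0.302 with control 2 and 0.01 ± 0.0655 without it. The part of these cells in the difference was not tested.

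Slc30a10 (ENSMUSG00000026614.6, chr1:185454848-185468762, plus strand), the manganese exporter, was 10.1, 8.01 and 7.23 CPM in cerebellum controls and 10 and 10.6 in KO (0.27 ± 0.17, and 0.24 without control 2). In cortex it was 22.1, 23.8 and 17.1 CPM in controls and 16.4 and 19 in KO (-0.23 ± 0.171, and -0.13 without control 2). Groups overlapped in both tissues and the signs were opposite. Of its exonic bases, 9.13% lie in Gm2061 on the other strand, which was 1.2 to 2.11 CPM in cerebellum and 3.21 to 5.47 in cortex.

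The importer Slc39a12 (ENSMUSG00000036949.16, chr2:14388316-14494977, plus strand) was higher in KO cerebellum, as were the metallothioneins. It was 61.1, 60.7 and 68 CPM in cerebellum controls and 90.8 and 90.5 in KO, where the KO mice nearly coincided above all controls. Its means of 63.2 ± 4.11 (SD, n = 3) and 90.7 ± 0.199 (n = 2) differed by 0.51 ± 0.0709, or 1.43-fold. In cortex it was 50.7, 44.1 and 38.6 CPM in controls and 53.8 and 54.5 in KO, again without overlap (0.30 ± 0.123, and 0.30 without control 2). Slc39a14 (ENSMUSG00000022094.15, chr14:70303469-70351425, minus strand), the manganese importer, was 32.8, 30.6 and 36.1 CPM in cerebellum controls and 32.2 and 31.4 in KO (-0.07 ± 0.0949, and -0.12 without control 2). It was 26.5, 26.6 and 29.1 CPM in cortex controls and 26.9 and 24.5 in KO (-0.08 ± 0.114, and -0.09 without control 2), so that the groups overlapped in both tissues.

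In cerebellum, 4 of the 9 genes passed the limits used for all genes, an adjusted p (Benjamini-Hochberg) under 0.05 and a log2 difference beyond 0.5 in size: Mt1, Mt2, Mt3 and Slc39a12, all higher. Of 19447 genes tested, 1.55% passed in either direction and 0.514% as higher. KO libraries lay above all controls for 5 of the 9, against 14.7% of all genes. The median log2 difference of the 9 was 0.51, and that of all genes 0.001. The 9 were chosen with these values known, so nothing is read from the shares. In cortex 0 of the 9 and 0% of the 19202 genes passed in edgeR. At an unadjusted p under 0.05 there were 3 of the 9 and 1139 of all genes, and DESeq2 called 0 of the 9 and 49 of all genes. The size limit decided part of this: Mt2 (0.46 to 0.49 over the alternatives) passed the adjusted p by DESeq2, without a filter on low counts and without control 2, and Mt1 (0.40) passed it without control 2, all short of 0.5. Cortex KO libraries lay above all controls for 3 of the 9, Mt1, Mt2 and Slc39a12, against 11.9% of all genes. In both tissues these shares of all genes used TMM factors fitted within the tissue, while the 9 were placed by factors over all 10 libraries.

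The cerebellar KO effect minus the cortical KO effect was computed in 1 fit of all libraries. With all libraries it was positive for all 9 genes, from 0.03 ± 0.14 for Slc39a14 to 0.68 ± 0.555 for Slc30a3. The median of all genes tested was 0.031. The 9 were chosen with their KO differences known, so nothing is read from the signs. The difference of the effects was 0.67 ± 0.202 for Mt1, 0.52 ± 0.196 for Mt2, 0.49 ± 0.173 for Mt3 and 0.23 ± 0.146 for Slc39a12. Without the cerebellum or the cortex library of control 2 it was 0.59 or 0.57 for Mt1, 0.39 or 0.49 for Mt2, 0.57 or 0.35 for Mt3, 0.43 or 0.96 for Slc30a3 and -0.02 or 0.03 for Slc39a14. In edgeR 0 of the 9 passed an adjusted p under 0.05, against 0.102% of 20614 genes (0.0243% higher and 0.0776% lower). DESeq2 called 0 of the 9 and 221 of all genes. The edgeR adjusted p was 0.317 for Mt1, 0.483 for Mt2 and 0.413 for Mt3 (unadjusted 0.00679, 0.024 and 0.016). The larger values in cerebellum are thus not shown to differ from those in cortex.

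The calls depended on single libraries, as the plot of fits with 1 library left out shows. Without control 1, 0 of the 4 genes were called although the log2 differences were 0.99 for Mt1, 1.01 for Mt2, 0.49 for Mt3 and 0.49 for Slc39a12. Without control 2, Mt1 (0.88), Mt2 (0.84) and Mt3 (0.60) were called, and Slc39a12 (0.48) fell under the size limit. Without control 3, Mt3 (0.48) was lost. Without KO 1, the mouse with the highest Mt1 and Mt2, Mt1 alone was called (0.72), while Mt2 was 0.77 and Mt3 0.42. Without KO 2, Mt1 was 1.17, Mt2 1.15 and Mt3 0.62, and Slc39a12 (0.51) was lost. The direction was positive for all 4 in every fit.

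**Figure D2:**
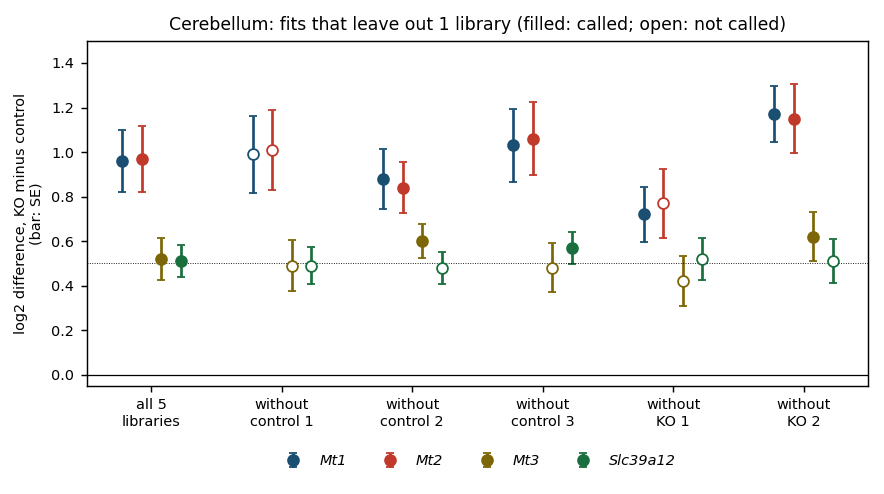
Log2 difference of KO against control in cerebellum (vertical axis, bars are SE) for Mt1, Mt2, Mt3 and Slc39a12, with all 5 libraries and with each left out (horizontal axis). Filled points were called and open points were not; Mt1 stays between 0.72 and 1.17 and Slc39a12 between 0.48 and 0.57.

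Across the groups, the cerebellum held more Mt1, Mt2, Slc39a12 and Slc39a14 and the cortex more Slc30a1, Slc30a3 and Slc30a10. In controls the log2 difference of cerebellum against cortex was 0.82 ± 0.129 for Mt1, 1.42 ± 0.127 for Mt2 and 0.51 ± 0.0932 for Slc39a12. It was -5.87 ± 0.357 for Slc30a3, or 58.6-fold lower in cerebellum, and -1.31 ± 0.16 for Slc30a10, or 2.48-fold lower. These 5 of the 9 passed the limits for all genes, 3 higher and 2 lower, beside 40.9% of 20614 genes. The others were -0.41 ± 0.11 for Mt3, -0.46 ± 0.0914 for Slc30a1, -0.18 ± 0.0775 for Mtf1 and 0.27 ± 0.0887 for Slc39a14. Slc39a12 lies near the limit and lost its call by DESeq2, without cerebellum control 3 and without cortex control 2 or 3, and Slc30a1 gained one without cortex control 2. Over the 5 libraries of each tissue, cerebellum lay above cortex for 4 of the 9 (24.5% of all genes) and below it for 3 (24.1%), without overlap. On library totals without TMM factors the median of all genes moved from 0.016 to 0.123, and the genes named kept their signs. In KO mice the difference was 1.49 ± 0.159 for Mt1, 1.94 ± 0.156 for Mt2, 0.74 ± 0.113 for Slc39a12 and 0.09 ± 0.134 for Mt3, with -0.78 ± 0.194 for Slc30a10 and -5.19 ± 0.402 for Slc30a3.

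**Figure D3:**
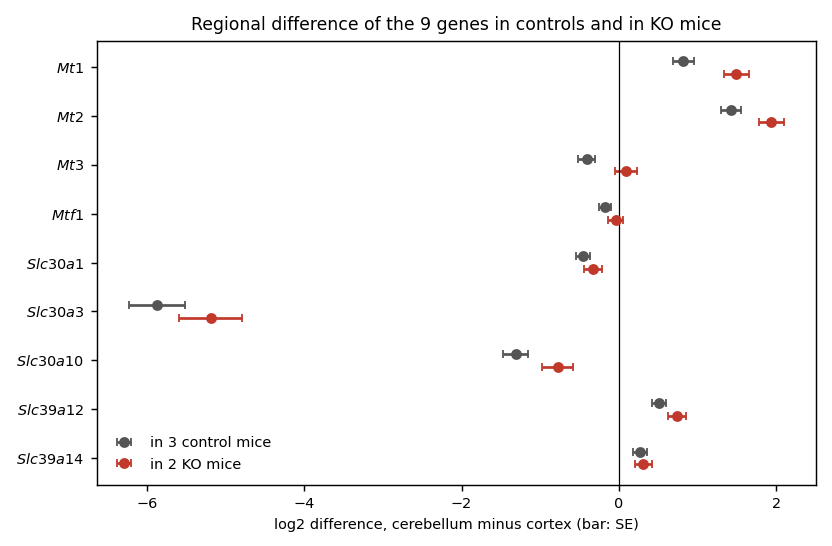
Log2 difference of cerebellum against cortex (horizontal axis, bars are SE) for the 9 genes in the 3 control mice and the 2 KO mice. Mt2 lies at 1.42 in controls and 1.94 in KO mice, and Slc30a3 at -5.87 and -5.19.

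For Mt1, Mt2 and Slc39a12 the order of levels was KO cerebellum, control cerebellum, KO cortex and control cortex, and no neighbours in it overlapped. For Mt3 the order was KO cerebellum, KO cortex, control cortex and control cerebellum, and only the last step was free of overlap. For Mtf1, Slc30a1 and Slc30a10 both cortex groups came first by mean, with KO and control overlapping within each tissue. The tissues overlapped for Mtf1, with 50.1 CPM in cortex control 3 and 50.4 in cerebellum control 2, but not for Slc30a1 and Slc30a10. Slc30a3 had the cortex groups first, with overlap between them only. Slc39a14 had the cerebellum groups first, with overlap within each tissue.

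Compared per length, the metallothioneins were the most abundant of the 9 in every group. In control cerebellum the level per kilobase of all exonic bases was 283 CPM for Mt2, 220 for Mt1 and 199 for Mt3, then 21.1 for Slc39a12, 5.28 for Mtf1, 4.71 for Slc30a1, 3.14 for Slc39a14, 1.45 for Slc30a10 and 0.601 for Slc30a3. The order depends on the length used. Per kilobase of the first annotated transcript, which is 549 bases for Mt1 against 1246 exonic bases in all, the control cerebellum values were 499 for Mt1, 396 for Mt3 and 325 for Mt2, and Slc39a14 came to 15.8. In control cortex Mt3 led by either length, at 264 CPM per kilobase of exonic bases, with 125 for Mt1 and 105 for Mt2.

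The other 43 genes of metal handling were the remaining metallothionein Mt4 and the remaining SLC30 and SLC39 families. Sets for the metal response, copper, manganese and synaptic zinc completed them. They are what was left once the genes described above had been taken out with their differences known. Few calls among the rest are thus partly set by that choice, and the counts are a description and not a test. The same holds for their regional counts below. In cerebellum 40 of the 43 passed the filter and 0 were called by edgeR. At an unadjusted edgeR p under 0.05 there were 4 of the 40, beside 2611 of all 19447 genes. DESeq2 called 1 of the 40, Cp. In cortex 0 of 40 were called by edgeR and 0 by DESeq2. There, 4 had an unadjusted edgeR p under 0.05, beside 1139 of all 19202 genes. The median log2 differences of the metal genes tested were -0.02 in cerebellum and 0.01 in cortex. For the difference of the KO effects 0 of 41 were called by edgeR or DESeq2, beside 0.102% of all genes by edgeR. The smallest edgeR adjusted p among the 41 was 0.382. The remaining SLC30 genes ran from -0.11 to 1.15 in cerebellum (6 tested) and the remaining SLC39 genes from -0.61 to 0.38 (11 tested). The value of 1.15 ± 0.42 (edgeR adjusted p = 0.275) belonged to Slc30a2, a vesicular zinc exporter, which was 0.278 to 0.661 CPM in controls and 1.04 and 1.12 in KO.

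Cp, which encodes the copper-carrying ferroxidase ceruloplasmin, is named after its values were seen. It was 26, 18 and 24.8 CPM in cerebellum controls and 37.6 and 35.5 in KO (log2 difference 0.67 ± 0.148, edgeR adjusted p = 0.067). In cortex it was 13.4, 6.54 and 10.3 CPM and 15.5 and 17.5 (0.73 ± 0.268, edgeR adjusted p = 0.796). Both KO libraries lay above all controls in both tissues, and control 2 was lowest in both. Without control 2 the cerebellum difference was 0.52 ± 0.0829 and was called (edgeR adjusted p = 0.0182). Cp also stands in the reactive astrocyte list below.

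**Figure D4:**
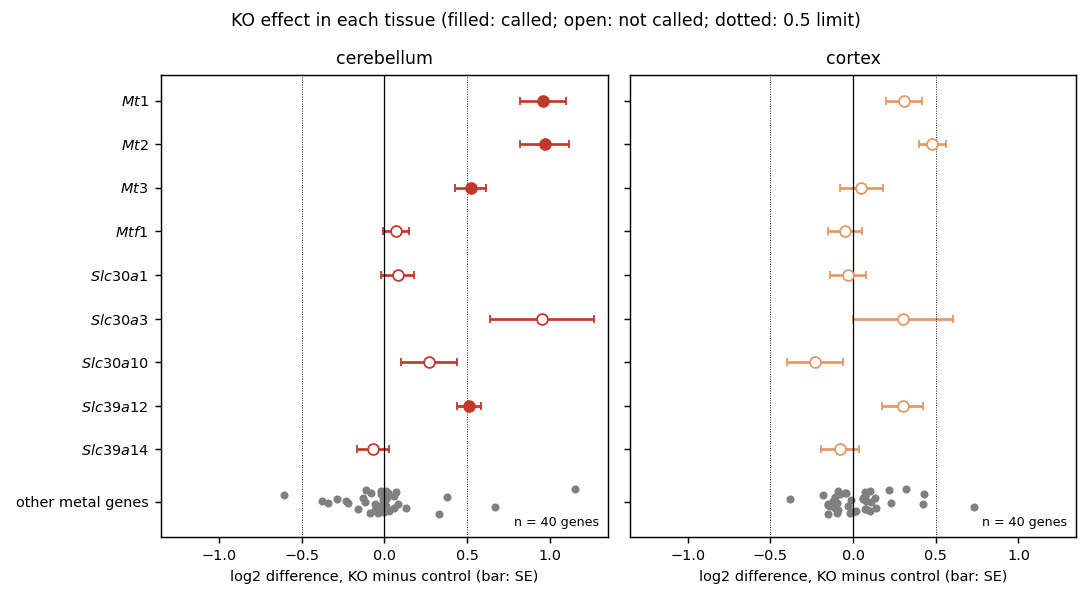
Log2 difference of KO against control (horizontal axis, bars are SE) in cerebellum and cortex for the 9 genes, with the 40 other metal-handling genes tested as grey points. Mt1, Mt2, Mt3 and Slc39a12 are called in cerebellum (filled) and none in cortex; the grey points run from -0.61 to 1.15 in cerebellum.

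Between regions in controls, 9 of 41 other metal genes were higher in cerebellum and 6 lower, beside 19.2% and 21.8% of all genes. The largest differences among the higher were Slc39a4, an intestinal-type zinc importer (2.42 ± 0.62, edgeR adjusted p = 0.00646), Cp (1.19 ± 0.223, adjusted p = 0.000908) and the copper importer Slc31a1 (1.06 ± 0.206, adjusted p = 0.00115). Slc39a4 was low, at 0.648 to 2.8 CPM in cerebellum and 0.253 to 0.491 in cortex controls. The largest among the lower were Slc30a2 (-3.24 ± 0.29, adjusted p = 3.36e-06), the zinc-sensing receptor Gpr39 (-2.20 ± 0.188, adjusted p = 2.39e-06) and the importer Slc39a10 (-1.96 ± 0.145, adjusted p = 7.26e-07). Of the exonic bases of Gpr39, 39.9% lie in Lypd1 on the other strand. Choroid plexus markers summed to 1212 to 3452 CPM in control cerebellum and 14.7 to 30.2 in control cortex, and their part in these differences was not tested.

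Several marker lists moved with the metallothioneins in KO cerebellum. The lists were chosen with earlier results of these data known, so the counts below are a description. Of all 19447 genes tested there, 0.514% were called higher and 1.04% lower, and the median log2 difference was 0.001. Of 13 astrocyte genes, 11 had a positive log2 difference and 4 were called higher, with a summed level of 6294 to 6845 CPM in controls and 7283 to 7608 in KO. Aqp4, the astrocyte water channel, ran from 349 to 407 CPM in controls and from 572 to 622 in KO (0.69 ± 0.0932, edgeR adjusted p = 0.00866), and Gja1 was also called (0.78), while Aldh1l1 was not (0.32). Of 13 reactive astrocyte genes all 13 were positive and 3 were called, with sums of 398 to 464 and 775 to 804 CPM. Gfap, the astrocyte filament gene, ran from 190.2 to 223 CPM in controls and from 497 to 506 in KO (1.30 ± 0.0856, edgeR adjusted p = 0.000444). Much of the rise in the reactive astrocyte sum was thus that of Gfap. Serpina3n was also called (1.38), and Vim was not (0.21 ± 0.1, edgeR adjusted p = 0.44). Of 13 glucocorticoid response genes all 13 were positive and 3 were called, with sums of 432 to 492 and 636 to 774 CPM. Sgk1, a kinase gene induced by glucocorticoids, ran from 96.5 to 109 CPM and from 166 to 168 (0.72 ± 0.0701, edgeR adjusted p = 0.00196). Fkbp5, with overlapping groups (0.62 ± 0.449, edgeR adjusted p = 0.645), and Tsc22d3 (0.34 ± 0.0869, edgeR adjusted p = 0.107) were not called. Microglia genes summed to 209 to 242 and 315 to 320.1 CPM, with 2 of 10 called. Of 6 Bergmann glia genes 4 were negative and 1 was called lower, with sums of 1141 to 1150 and 904 to 938. Of 14 Purkinje cell genes 12 were called lower, with sums of 10934 to 12637 CPM in controls and 5793 to 5998 in KO. Of 9 meningeal fibroblast genes all 9 were positive and 0 were called, with a median of 0.63 and sums of 101 to 273 and 219 to 339 CPM. Of 9 choroid plexus genes 8 were negative and 0 were called, with sums of 1212 to 3452 and 65 to 2967. Of 10 oligodendrocyte genes 8 were positive and 0 were called, with sums of 4509 to 6776 and 6000 to 7688. No gene of these lists was at 0. The part of any of them in the metallothionein values was not tested.

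In cortex 12 of 13 astrocyte genes were positive, with sums of 4118 to 5449 CPM in controls and 5812 to 6107 in KO. The reactive astrocyte sums were 169 to 237 and 269.6 to 272, with 8 of 10 tested genes positive. The glucocorticoid response sums were 476 to 484 and 615 to 738, with 13 of 13 positive. All 9 meningeal fibroblast genes were positive (22.7 to 87.5 and 63.6 to 93.8 CPM), and all 10 oligodendrocyte genes were negative (4905 to 9066 and 5313 to 5357). In edgeR 0 genes of these lists were called in cortex, as for all genes there. Striatal markers summed to 1976 to 4682 CPM in control and 716 to 1260 in KO cortex, so that the groups did not overlap on this list. All 11 striatal genes were negative, with a median log2 difference of -1.70. The same cortex libraries enter the difference of the KO effects and the regional contrast. KO 1 held more Mt1 and Mt2 than KO 2 in cerebellum. Its glucocorticoid response sums were also higher, 774 against 636 CPM in cerebellum and 738 against 615 in cortex. In cerebellum the astrocyte sum of KO 1 was higher too (7608 against 7283), and the reactive astrocyte sum was lower (775 against 804). In cortex Mt1 was 199 CPM in KO 1 and 184 in KO 2, while Mt2 was 85.2 and 85.7. The part of any list in these values was not tested.

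**Figure D5:**
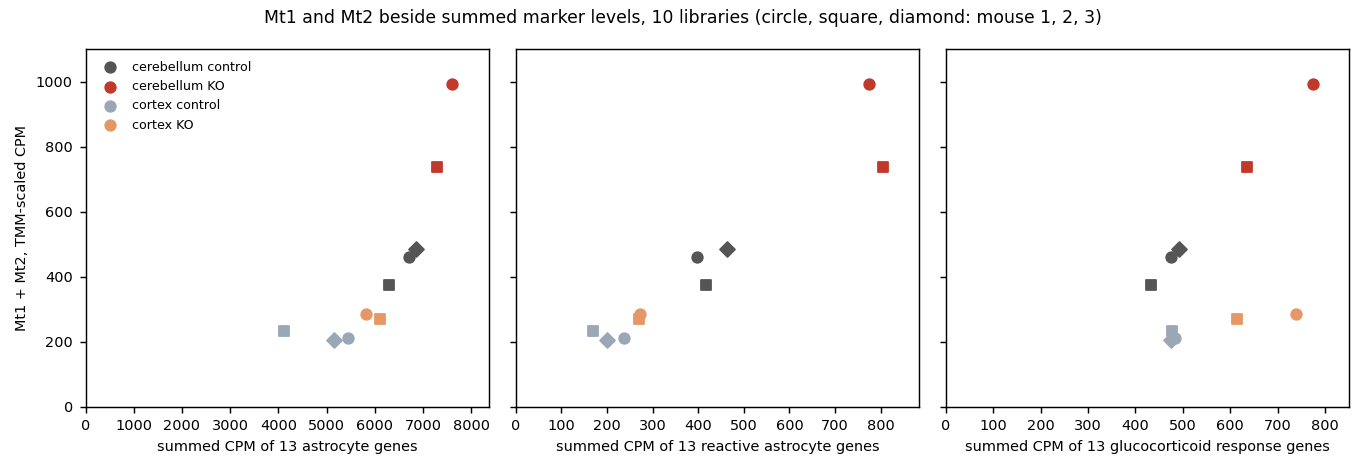
Summed level of Mt1 and Mt2 (vertical axis, TMM-scaled CPM) against the summed CPM of 13 astrocyte, 13 reactive astrocyte and 13 glucocorticoid response genes (horizontal axes) in the 10 libraries. The KO libraries of each tissue lie to the right of and above the controls of that tissue for every list shown. Gfap holds much of the reactive astrocyte sum.

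The genes whose levels ran most like each of the 9 over the 10 libraries were taken by Pearson's r of log2 CPM, each gene centred on its tissue mean, over 12390 genes. The points share mice, and the choice of the highest of so many makes high values common, so r is a description. Centring on the tissue mean leaves the difference between KO and control in r, so genes higher in KO run together. The 9 were chosen with that difference known, and nothing is read from r among them. For Mt1 they were Mt2 (0.970), Gm45774, Cebpa, Prodh and Fcrls, and for Mt2 they were Gm45774 (1.000), Sdc4 (0.976), Prodh (0.972), Mt1 and Ogdhl. For Mt3 they were Kcnk1 (0.965), Hsd17b11, Wdr45, Nfkb2 and Phyh. Slc39a12 ran with Naaa, Olfr287, Suclg2 (0.975 each), Pou3f3 and Vangl2. Slc30a3 ran with Hyal1 (0.989), Pbxip1, Mast4, Ntrk2 and D030047H15Rik. Among the 9 themselves, r with Mt1 was 0.828 for Mt3 and 0.863 for Slc39a12, and 0.280 for Mtf1, 0.397 for Slc30a1 and -0.201 for Slc39a14. The leading gene was Ppp1r14a (0.966) for Mtf1, Bcl2l1 (0.973) for Slc30a1, Hacd4 (0.966) for Slc30a10 and Sft2d3 (0.940) for Slc39a14.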

How the data were processed

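Strand-specific mRNA libraries of the cerebellum and cortex of 5 mice were sequenced as read pairs. According to their file headers and the methods, the authors aligned trimmed reads to GRCm38 with STAR and counted pairs over exons with featureCounts 2.0.1 without strand, giving a pair that overlapped several genes to each of them and leaving out reads with several alignments. The deposited values are raw counts, 1 table per library. Of 81881 entries, 55536 carry a mouse gene identifier and were kept, with names from GENCODE M21. The other 26345 held 0.16% to 0.926% of a library's counts and were left out.

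KO and control were compared within each tissue with edgeR 4.0.16 in R 4.3.3 (filterByExpr, count minimum 10, TMM factors, quasi-likelihood test), over all genes. The difference between tissues and the regional contrast came from 1 fit of the 4 groups, in which the same mouse gave both tissues. Same-mouse libraries deviated together (r of 0.324 to 0.571). A call needed a Benjamini-Hochberg adjusted p under 0.05 and, except for the difference between tissues, an absolute log2 difference over 0.5. DESeq2 1.42.0, other scalings and filters, a block for the mouse and leaving out each library were alternatives. The scripts were tested on simulated data.

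The 9 genes, the other metal genes and the marker lists were chosen with earlier results of these data known. Named were the 9, Snx14, their overlapping genes, the 3 largest regional calls in each direction among the other metal genes, the 5 genes most like each of the 9 (4 of them by their leading gene alone), and at most 3 genes of a marker list. Any other gene named was chosen with its values in view, as said there. Libraries of a group are separate mice. SD is over mice, and counts are without molecular identifiers. SE comes from the edgeR fit, in which the spread of a gene is drawn towards that of all genes. In the fit of all groups the tissues of a mouse counted as independent libraries.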

Additional observations from a re-analysis of the deposited data

How the results depend on the processing

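The number of genes called in KO cerebellum was 302, with 842 without a filter on low counts, 181 with a replicate block and 133 to 400 with 1 library left out (133 without control 1, 179 without control 3 and 180 without KO 1). In KO cortex it was 0, with 49 by DESeq2, 380 without a filter, 3 with a replicate block and 0 to 98 with 1 library left out (98 without control 2 and 7 without KO 2). For the difference of the KO effects it was 21, with 221 by DESeq2, 599 without a filter, 128 with a block for the mouse and 3 to 117 with 1 library left out. The 117 came without cortex control 2 and 36 without cerebellum KO 1. The counts fell to 10 and 11 without cerebellum control 1 or 3, to 6 without cerebellum KO 2, to 11 without cortex control 3, and to 8 and 3 without cortex KO 1 or KO 2. Fits without a filter estimated an infinite prior df (the same spread for every gene), and the cause of the other shifts was not tested. The regional count was 8433 and ran from 7870 to 9318, with 7334 in KO mice, an alternative added after the data were seen. On library totals it split into 4865 higher and 3940 lower, against 3948 and 4485.

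Of the 9 genes, 4 were called in KO cerebellum, and 0 to 3 with 1 library left out (0 without control 1 and 1 without KO 1). DESeq2 and library totals called the same 4, the fit without a filter added Slc30a3, and the replicate block called 3, without Mt3. Controls and KO mice share only a number, so that block pairs no animals. For the difference of the KO effects 0 of the 9 were called, and 2 without a filter, Mt1 and Mt2. In cortex 0 of the 9 were called in every alternative. With the block for the mouse, no other call among the 9 changed. Single log2 differences were judged by the spread between mice for the 9 genes, where 21 moved by more, and by the call for the other named genes, where 7 gained a call and 3 lost one (in Snx14, Cp and Slc39a4). The other 518 stayed within these limits. Of mean CPM, 8 moved and 28 did not. For Snx14 in cerebellum the call was lost without KO 1 or KO 2. Depth differs between the genes: Mt2 held 1016 to 6852 counts in a library, while Slc30a3 held 23 to 92 in cerebellum. Groups of 2 and 3 mice limit the precision of both.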
